A study of Equus caballus with 31 samples.

Results

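Synovial fibroblast identity genes are described here in cells from the joint fluid and the blood of horses with and without osteoarthritis (OA). The members were the rows with 10 gene symbols, chosen by what each is known to mark and with their fluid values in OA and healthy horses already known, namely the lining genes PDPN and PRG4, the sublining genes THY1, PDGFRA, PDGFRB, DCN and LUM, and the general fibroblast genes FAP, CDH11 and SIX2. Of these, 9 were among the 17538 genes of the fluid table and 8 were among the 17410 genes of the blood table. PRG4 in both tissues and CDH11 in blood were not analysed here, so PDPN alone stands for the lining. The 4 groups were fluid of OA horses (n = 5), fluid of healthy horses (n = 11), blood mononuclear cells (PBMC) of OA horses (n = 6) and PBMC of healthy horses (n = 9). All horses were labelled wild type, their OA arose naturally, and lameness tests, joint radiographs and the answer to joint analgesia decided the class. The fluid was digested with hyaluronidase, an enzyme that thins it, and its cells were pelleted by centrifugation. The labels call both kinds of sample mixed mononuclear cells. They give no age, sex, joint or batch, so none of these could be compared between the groups. For 13 horses, 5 with OA and 8 healthy, both fluid and blood were sequenced.

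The synovial membrane that lines a joint has a thin inner layer of fibroblasts and macrophages, the lining, over a looser sublining with vessels and further fibroblasts. Lining fibroblasts make lubricin, the product of PRG4, and hyaluronan, and carry podoplanin, the product of PDPN. Sublining fibroblasts carry Thy-1 and the receptors for platelet-derived growth factor and lay down collagens with the small proteoglycans decorin and lumican, the products of DCN and LUM. These layers were described mainly in human and mouse joints. Cells that are shed into the fluid are mostly leukocytes, and fibroblasts among them are usually few.

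The values are normalised read counts, that is, reads per gene divided by a size factor of each library. Depth was 25.91 to 36.32 M reads in the fluid libraries and 23.91 to 34.75 M reads in the PBMC libraries. On the horse build EquCab3.0 the blood table places PDPN on chromosome 2 from 39134617 to 39161587, THY1 on chromosome 7 from 27703180 to 27704676 and PDGFRA on chromosome 3 from 79950047 to 79991233. It places PDGFRB on chromosome 14 from 27153273 to 27188686, FAP on chromosome 18 from 42577249 to 42652034 and SIX2 on chromosome 15 from 54766548 to 54769748. LUM, from 17947669 to 17954859, and DCN, from 17992720 to 18029800, are neighbours on chromosome 28 with 37860 bases between them. All 8 are classed as protein coding. The OA fluid of horse OA_9570 stood apart from the other 4 OA fluids for these genes: it was the lowest OA fluid for all 9 members, and the change of each member below is given with and without it.

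The members were high in 4 of the 5 OA fluids, and in OA_9570 all but SIX2 were below the healthy median. In those 4 fluids PDPN, DCN, FAP, CDH11 and SIX2 were above every healthy fluid, and THY1, PDGFRA, PDGFRB and LUM were above all but 1 healthy fluid. The 4 fluids were picked by their values of these same genes, and the share of all genes that separate the same way was not counted. Nothing particular to the members is read from this separation. The mean log2 change, OA minus healthy on log2(value + 1), was positive for all 9 members and lay between 2.07 for PDGFRA and 6.40 for SIX2, with a median of 3.81. Without OA_9570 it lay between 4.04 and 7.20, with a median of 5.41. These genes were chosen with this contrast known, so their fluid values are given as a description with no test. In bulk samples such as these, fewer cells of a type and less RNA per cell cannot be told apart.

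**Figure D1:**
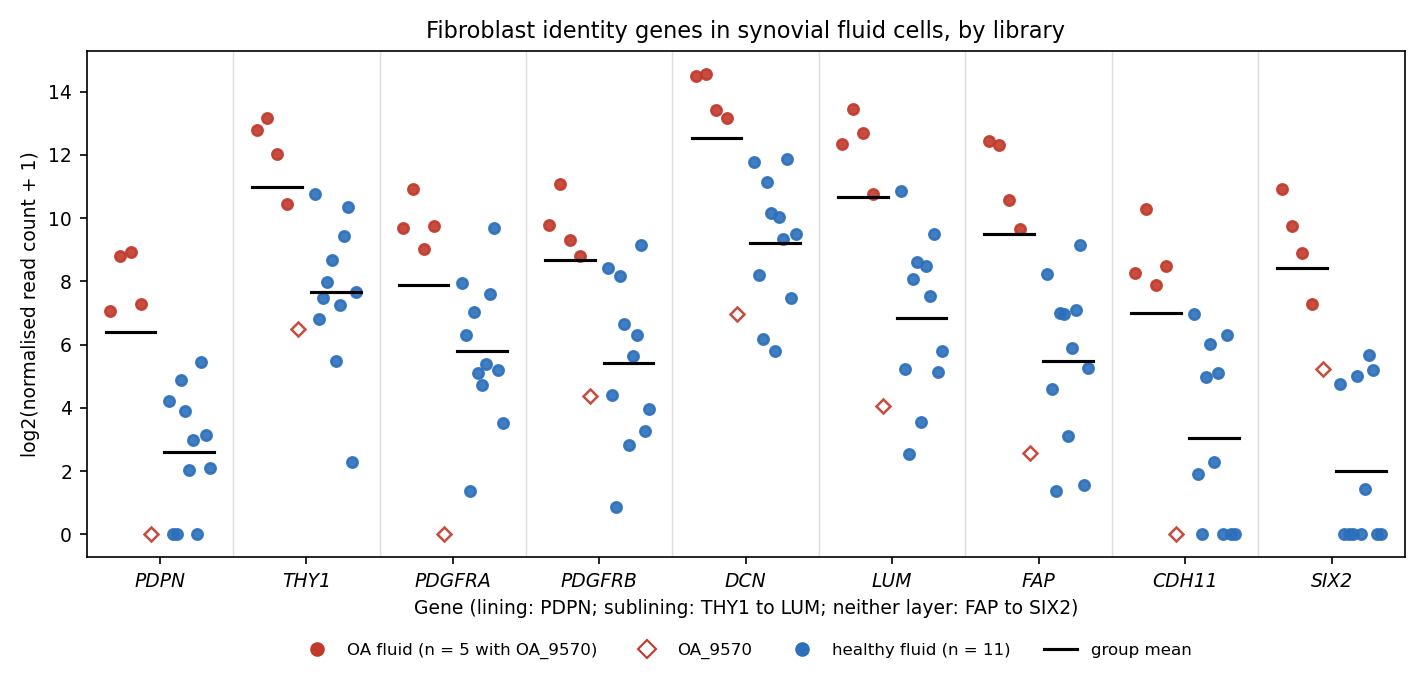
Normalised read counts of the 9 members in synovial fluid cells, as log2(value + 1), with 1 point per library, OA (red, n = 5) left of healthy (blue, n = 11) for each gene and a black line at the group mean. The open diamond is OA_9570, which is the lowest OA fluid in every panel and lies at 0 for PDPN, PDGFRA and CDH11.

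PDPN, the lining gene, encodes podoplanin, a membrane glycoprotein that binds the platelet receptor CLEC-2 and links to the actin cytoskeleton. Its normalised count was 132, 441, 483, 156 and 0 in the OA fluids of OA_1038, OA_2615, OA_3850, OA_9350 and OA_9570, and the same order of horses is kept below. The healthy fluids had a lowest count of 0, a median of 6.91 and a highest of 42.5, in ORC_205. OA_9570 and 3 healthy fluids (ORC_192, ORC_196 and ORC_202) had no PDPN read, and the other 4 OA fluids were all above the highest healthy fluid. A count of 0 still allows up to 3 reads, which is a normalised count of 2.94 to 3.77 in the OA fluids and 2.30 to 3.46 in the healthy fluids. The mean was 242 ± 209.6 in OA fluids (SD, n = 5) and 11.2 ± 13.6 in healthy fluids (SD, n = 11), a log2 change of 3.81 (SE 1.30). Without OA_9570 the OA mean was 303 ± 185 (SD, n = 4) and the change 5.41 (SE 1.03).

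Among the sublining genes, THY1 encodes Thy-1 (CD90), a small surface protein anchored by a lipid that marks human sublining fibroblasts. It had 7094, 9105, 4154, 1403 and 90.0 normalised counts in the OA fluids, against a lowest of 3.88, a median of 200.6 and a highest of 1749.7 in the healthy fluids. OA_2615 was the highest and OA_9570 was below the healthy median. The groups overlapped, since ORC_188 also lay above OA_9350. The mean was 4369 ± 3775 in OA fluids (SD, n = 5) and 463 ± 568.2 in healthy fluids (SD, n = 11), a log2 change of 3.33 (SE 1.22), or 4.45 (SE 1.13) without OA_9570.

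PDGFRA and PDGFRB encode the alpha and beta receptors for platelet-derived growth factor, which drives the growth and movement of mesenchymal cells. PDGFRA had 830.4, 1936, 516, 866 and 0 normalised counts in the OA fluids, against 1.61, 40.6 and 828 as the lowest, median and highest of the healthy fluids. It was at 0 in OA_9570 alone of all 16 fluids, and ORC_205 lay above OA_3850 and just below OA_1038. Its mean was 829.6 ± 709 in OA fluids (SD, n = 5) and 148 ± 239 in healthy fluids (SD, n = 11), a log2 change of 2.07 (SE 1.51) that became 4.04 (SE 1.07) without OA_9570. PDGFRB had 877, 2151, 633, 445 and 19.6 normalised counts in the OA fluids, against 0.806, 49.2 and 570.1 in the healthy fluids. OA_2615 was again the highest, and ORC_205 lay above OA_9350. The mean of PDGFRB was 825 ± 805 in OA fluids (SD, n = 5) and 134 ± 186 in healthy fluids (SD, n = 11), a log2 change of 3.24 (SE 1.27), or 4.31 (SE 1.23) without OA_9570.

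DCN and LUM encode decorin and lumican, proteoglycans with leucine-rich repeats that bind collagen fibrils and set their spacing. DCN had 23228, 24269, 10960.0, 9139 and 124 normalised counts in the OA fluids, against 55.2, 718 and 3782 as the lowest, median and highest of the healthy fluids. The 4 OA fluids other than OA_9570 were all above ORC_205, the highest healthy fluid, whereas OA_9570 was below the healthy median. The mean of DCN was 13544 ± 10186 in OA fluids (SD, n = 5) and 1243 ± 1339.6 in healthy fluids (SD, n = 11), a log2 change of 3.30 (SE 1.21), or 4.68 (SE 0.99) without OA_9570. LUM had 5238, 11278, 6600.4, 1728 and 15.7 normalised counts in the OA fluids, against 4.84, 186 and 1869 in the healthy fluids. OA_9350 and ORC_188 overlapped, and OA_2615 was the highest. The mean of LUM was 4972 ± 4404 in OA fluids (SD, n = 5) and 358 ± 548 in healthy fluids (SD, n = 11), a log2 change of 3.82 (SE 1.49), or 5.47 (SE 1.23) without OA_9570.

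FAP encodes fibroblast activation protein, a membrane protease related to dipeptidyl peptidase 4 that is known from fibroblasts of wounds, tumours and inflamed joints. It had 5618, 5039.6, 1528, 803 and 4.89 normalised counts in the OA fluids, against 1.61, 58.7 and 574 as the lowest, median and highest of the healthy fluids. OA_1038 was the highest, and the only OA fluid within the healthy range was OA_9570. The mean was 2599 ± 2558 in OA fluids (SD, n = 5) and 126 ± 173 in healthy fluids (SD, n = 11), a log2 change of 4.03 (SE 1.52), or 5.77 (SE 1.25) without OA_9570.

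CDH11 encodes cadherin-11, the adhesion molecule by which synovial fibroblasts hold to each other in mouse and human lining. It had 308, 1259, 235, 361 and 0 normalised counts in the OA fluids, against 0, 3.84 and 123 as the lowest, median and highest of the healthy fluids. OA_9570 and 4 healthy fluids had no CDH11 read, and the other 4 OA fluids did not overlap with the healthy ones. The mean was 433 ± 482 in OA fluids (SD, n = 5) and 30.6 ± 41.5 in healthy fluids (SD, n = 11), a log2 change of 3.94 (SE 1.59), or 5.68 (SE 1.37) without OA_9570.

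SIX2 encodes a homeobox transcription factor known from kidney progenitors and head mesenchyme. Its normalised count was 1924, 857, 472, 156 and 36.2 in the OA fluids, against 0, 0 and 49.999 as the lowest, median and highest of the healthy fluids. No SIX2 read was found in 6 of the 11 healthy fluids, and SIX2 was the 1 member for which OA_9570 lay above most healthy fluids: a single healthy fluid, ORC_202, was higher than it by count. The mean was 689 ± 760.3 in OA fluids (SD, n = 5) and 13.1 ± 18.8 in healthy fluids (SD, n = 11), a log2 change of 6.40 (SE 1.24), or 7.20 (SE 1.28) without OA_9570.

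All 9 members passed the filter on low values, a mean of at least 10. With limma and Benjamini-Hochberg adjustment over all 13885 genes tested, 2 of the 9, PDPN and SIX2, were called higher in OA fluid and 0 were called lower, where 14.4% of all genes were called higher and 13.6% lower. The contrast had chosen these genes, so nothing is read from that count. It depended on the tool and on single libraries. edgeR called 7 higher (all but PDGFRA and PDGFRB), where it called 14% of all genes higher. DESeq2 also called 7 (all but PDGFRA and CDH11), where it called 18.1%. Without OA_9570, the lowest OA fluid for all of them, limma called all 9, where it called 2575 of 13901 genes higher. Without ORC_188 it called 8, where 2020 of 13899 genes were higher, and without ORC_205 it called 6, where 2117 of 13874 were. Without any one of OA_1038, OA_2615, OA_3850, OA_9350, ORC_192, ORC_196, ORC_200 and ORC_209 it called SIX2 alone. In these settings 1208 (without OA_2615) to 1852 (without ORC_196) of all genes were called higher. The change of each member was positive in every setting run, and the smallest was 1.31, for PDGFRA without OA_2615.

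The OA fluids did not keep 1 order over the members. OA_2615 was the highest fluid for THY1, PDGFRA, PDGFRB, DCN, LUM and CDH11, OA_1038 was the highest for FAP and SIX2, and OA_3850 was the highest for PDPN. Among the healthy fluids ORC_205 was the highest for PDPN, PDGFRA, PDGFRB, DCN and FAP, ORC_188 for THY1, LUM and CDH11, and ORC_202 for SIX2. The ratio of PDGFRA to PDGFRB, read within each library, was 0.947, 0.900, 0.814, 1.95 and 0 in the OA fluids and 0.333 to 4.13 in the healthy fluids. Its ends rest on few reads, with 33 over 8 in ORC_200 (4.13) and 0 over 20 in OA_9570. The ratio of DCN to LUM was 1.66 to 7.94 in the OA fluids and 1.86 to 14.7 in the healthy fluids, where 14.7 was 88 over 6 reads in ORC_196. Both ratios overlapped between the groups.

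The lining gene was set against the sublining genes within each library, to take out the level that they share. Where PDPN has few or no reads, that level is taken out only in part. The difference between PDPN and the mean of the 5 sublining genes, on log2(value + 1), was −3.73 ± 0.94 in OA fluids (SD, n = 5) and −4.39 ± 1.78 in healthy fluids (SD, n = 11). OA minus healthy was 0.66 (SE 0.68), or 0.82 without OA_9570, 0.32 without OA_3850, 0.29 without ORC_202 and 0.27 with a pseudocount of 4. The OA fluids ran from −4.77 in OA_1038 to −2.37 in OA_3850, inside the healthy range of −8.05 in ORC_202 to −1.54 in ORC_208, so the groups overlapped on this measure. In the fluids with no PDPN read the difference is the sublining level alone with its sign turned, as in OA_9570 (−4.38) and ORC_202 (−8.05).

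Counting error was read from the whole reads behind the values. The 5 sublining genes together had 38792 reads in OA_2615, 30250 in OA_1038, 21591 in OA_3850, 10997 in OA_9350 and 255 in OA_9570, against 184 in ORC_200 to 9187 in ORC_188 in the healthy fluids. PDPN had 3.54 reads per 1000 sublining reads in OA_1038 (95% exact interval 2.90 to 4.28), 9.05 in OA_2615 (8.12 to 10.1), 21.1 in OA_3850 (19.2 to 23.2) and 11.5 in OA_9350 (9.54 to 13.7). The OA fluids thus differed among themselves by more than counting error, which is all that these intervals cover. In the 7 healthy fluids with at least 1000 sublining reads, a limit chosen after the values were seen, PDPN had 0 to 8.93 such reads with a median of 4.19, against 3.54 to 21.1 with a median of 10.3 in the 4 OA fluids with as many. OA_9570, with 0 PDPN reads of 255, allows up to 14.6 per 1000, a bound below the PDPN share of OA_3850 but not below those of OA_1038, OA_2615 and OA_9350.

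**Figure D2:**
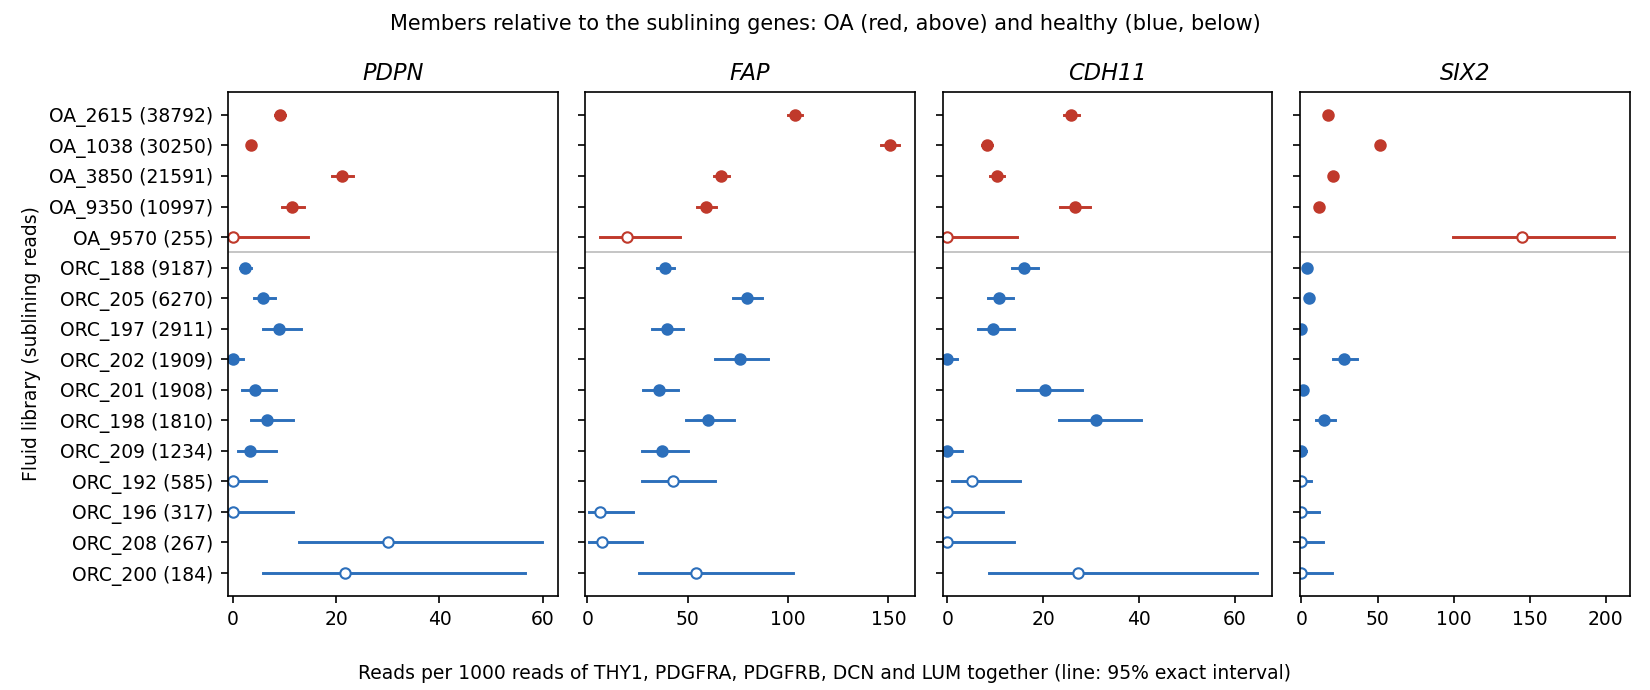
Reads of PDPN, FAP, CDH11 and SIX2 per 1000 reads of the 5 sublining genes in each fluid library, OA (red) above healthy (blue), with the sublining reads of the library in brackets and exact 95% intervals that cover counting error only. Open points mark libraries under 1000 sublining reads. OA_9570 has the highest SIX2 share, 145 per 1000, with a wide interval, and ORC_202 has no PDPN or CDH11 read.

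The general fibroblast genes took different shares in different fluids. FAP had 151, 103, 66.8, 59.1 and 19.6 reads per 1000 sublining reads in the OA fluids, against 35.6 to 79.6 with a median of 39.5 in the 7 healthy fluids. OA_1038 and OA_2615 were above all 7, and OA_3850 and OA_9350 lay within their range. CDH11 had 8.26, 25.8, 10.3, 26.6 and 0 per 1000 in the OA fluids and 0 to 30.9, with a median of 10.8, in the 7 healthy fluids, a range that covers all the OA values. SIX2 had 51.6, 17.6, 20.7, 11.5 and 145 per 1000 in the OA fluids, against 0 to 27.8 with a median of 3.37 in the healthy ones. OA_9570 had 37 SIX2 reads beside 255 sublining reads (interval 99.9 to 205.4 per 1000), the highest share of the 16 fluids, although it was the OA fluid with the fewest sublining reads. Of these 255 reads 92 were of THY1, which also had reads in every PBMC library, so this base need not be fibroblast alone. ORC_197 had no SIX2 read beside 2911 sublining reads, which allows up to 1.27 per 1000.

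Among the healthy fluids ORC_202 had no read of PDPN or of CDH11 beside 1909 sublining reads, which allows up to 1.93 per 1000 for each. ORC_196 also had no read of either, beside 317 sublining reads, which allows up to 11.7 per 1000. ORC_202 also had the highest SIX2 count of the healthy fluids, with 53 reads, and 75.96 FAP reads per 1000 sublining reads. THY1 made up 38.5% of its sublining reads (exact interval 36.3 to 40.7), against 18.2% to 19.0% in OA_1038, OA_2615 and OA_3850, 10.3% in OA_9350 and 36.1% (30.2 to 42.3) in OA_9570. Over all healthy fluids the THY1 share ran from 1.498% in ORC_208, with 4 reads of 267, to 69.4% in ORC_196, with 220 reads of 317. Both ends of that range were in libraries with few sublining reads, but their exact intervals, 0.41% to 3.79% and 64.0% to 74.4%, did not overlap. THY1 also had reads in all 6 OA and all 9 healthy PBMC libraries, so its fluid reads need not come from fibroblasts. Which cells gave them was not tested.

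Within the 11 healthy fluids, which the OA contrast does not enter, the members varied together from horse to horse. DCN, taken as the yardstick because it had at least 55.2 normalised counts in every healthy fluid, spread from 5.81 to 11.89 on the log2(value + 1) scale. ORC_200 and ORC_196 were lowest, at 5.81 and 6.17, and ORC_208 was next at 7.47. Whether the fluids form clusters was not tested. Pearson's r to DCN was 0.95 for LUM (two-sided permutation p = 1e-05, the smallest that 100000 resamples can give, adjusted over 8 relations 8e-05), 0.94 for PDGFRB (permutation p = 5e-05, adjusted 0.0002) and 0.92 for FAP (permutation p = 0.00011, adjusted 0.000293). Their Spearman's rho was 0.95 (permutation p = 7e-05), 0.95 (permutation p = 6e-05) and 0.88 (permutation p = 0.00075). These 3, the neighbour of DCN, a sublining receptor and the protease, had the highest r of the 8.

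The r of the other 5 members was lower, and the differences between r values were not tested. Pearson's r was 0.73 for CDH11 (permutation p = 0.0135, adjusted 0.018), 0.73 for PDGFRA (permutation p = 0.0109, adjusted 0.018), 0.70 for THY1 (permutation p = 0.0131, adjusted 0.018) and 0.69 for PDPN (permutation p = 0.0195, adjusted 0.0223). Spearman's rho was 0.75 for CDH11, 0.69 for PDGFRA, 0.79 for THY1 and 0.81 for PDPN (permutation p = 0.00985, 0.0219, 0.00522 and 0.00425). SIX2, at 0 in 6 of the 11 fluids, had r = 0.61 (permutation p = 0.0505, adjusted 0.0505) and rho = 0.57 (permutation p = 0.0716), so its relation did not pass the threshold. Without ORC_200 and ORC_196, the fluids farthest from the median of DCN, r was 0.90 for LUM, 0.93 for PDGFRB, 0.91 for FAP, 0.82 for CDH11, 0.59 for PDGFRA, 0.83 for THY1, 0.70 for PDPN and 0.52 for SIX2 (n = 9). Genes outside the members also moved with DCN in these fluids. The median r to DCN was 0.92 over 14 matrix genes that fibroblasts share. Among genes of other cells it was 0.84 over the 7 macrophage markers tested and −0.31 over the 10 T cell markers, where it was −0.02 over all genes. The part of the cell mixture in these relations was not tested.

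**Figure D3:**
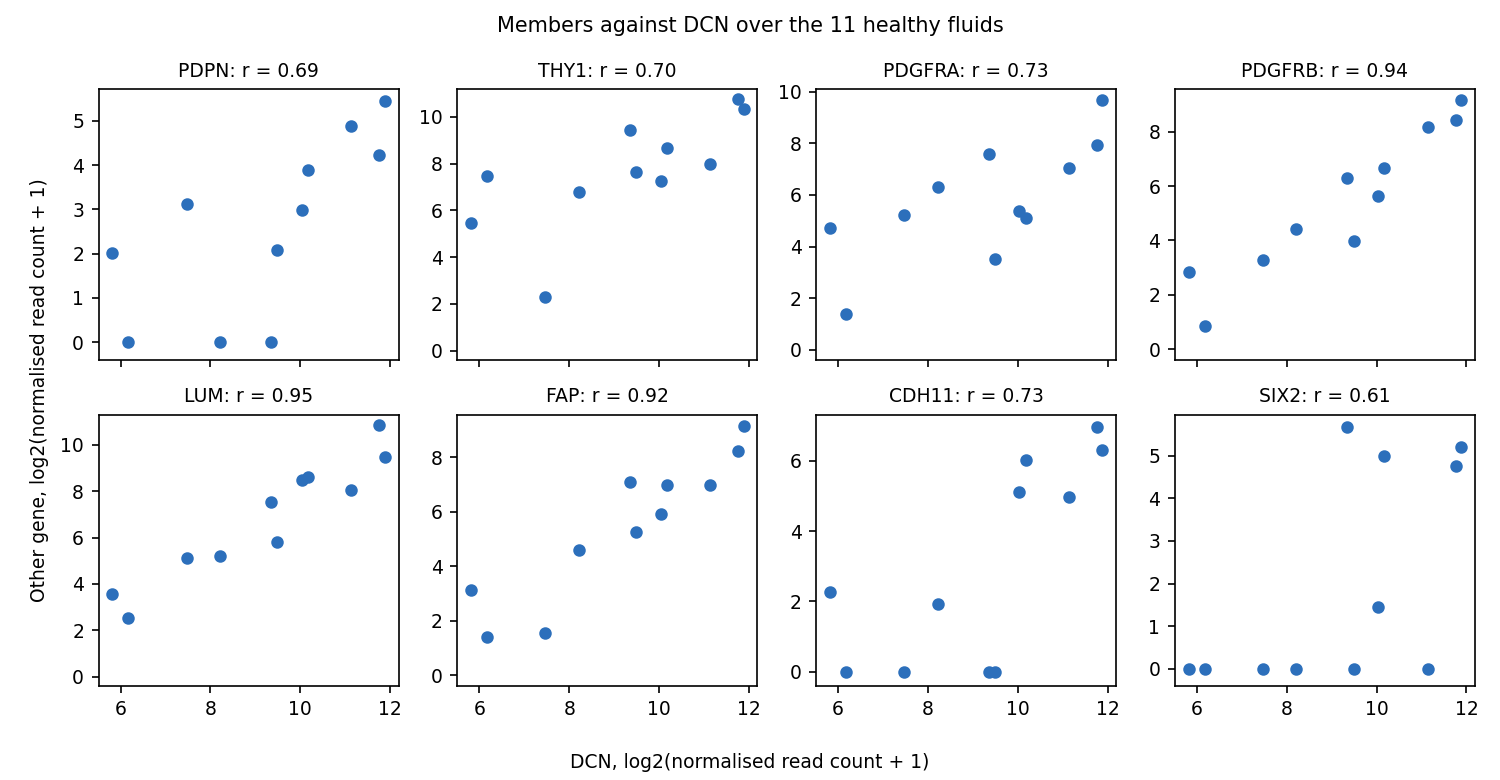
Each of 8 members against DCN over the 11 healthy fluids, both as log2(normalised read count + 1), with 1 point per horse and Pearson's r in the panel title. LUM, PDGFRB and FAP lie near a line, and SIX2 is at 0 in 6 of the fluids.

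Further genes of the fibroblast layers were read from lists of genes known from the lining and the sublining. Of 12 lining fibroblast genes tested, 4 rose in OA fluid, 0 fell and the median change was 1.42, where 14.4% of all genes rose and the median of all genes was 0.08. UGDH, which makes the building block of hyaluronan, had 1886 ± 1413 normalised counts in OA fluids (SD, n = 5) and 667 ± 170.4 in healthy fluids (SD, n = 11), and its change was 1.17 (SE 0.37; limma adjusted p = 0.0253). HAS1, a hyaluronan synthase, had a change of 2.84 (SE 1.002; limma adjusted p = 0.0434, edgeR 0.0709). HBEGF, a growth factor of the EGF family, had 2.55 (SE 0.82; limma adjusted p = 0.0297), and VCAM1, an adhesion molecule for leukocytes, had 3.01 (SE 1.06; limma adjusted p = 0.0442). CLIC5, also known from the lining, had a change of −0.10 (SE 0.46; limma adjusted p = 0.886). The count of 4 was 0 without OA_2615 or OA_3850, 1 without OA_1038 or OA_9350, 2 without ORC_192, ORC_201, ORC_208 or ORC_209, 5 without OA_9570, 7 with DESeq2 and 1 with scaling to equal totals. In PBMC 8 genes of this list passed the filter, so the list is not particular to fibroblasts. CREB5, 1 of these 8, was called higher in OA PBMC, where 3.2% of all genes were.

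Of 17 sublining fibroblast genes tested, 6 rose, 1 fell and the median change was 2.28. FBLN2, a glycoprotein of elastic fibres and basement membranes, had 3180.2 ± 3139 normalised counts in OA fluids (SD, n = 5) and 455 ± 417 in healthy fluids (SD, n = 11), and its change was 2.77 (SE 0.68; limma adjusted p = 0.0082). SFRP1, a secreted inhibitor of Wnt signals, had a change of 4.06 (SE 1.22; limma adjusted p = 0.0212), and IGFBP6, which binds insulin-like growth factor 2, had 2.28 (SE 0.67; limma adjusted p = 0.0192). DPP4, a protease known from human fibroblasts near vessels and also carried by T cells, fell: it averaged 537 ± 405 in OA fluids (SD, n = 5) and 1589 ± 723 in healthy fluids (SD, n = 11), a change of −1.78 (SE 0.45; limma adjusted p = 0.0088). CD34, another sublining marker, was near the filter with means of 17.6 in OA fluids and 13.7 in healthy fluids. The count of 6 higher ran from 1 (without OA_2615) to 9 (without OA_9570) and was 2 without OA_1038 and 3 without OA_3850. In PBMC 12 genes of this list passed the filter, so it too is not particular to fibroblasts. GAS6, 1 of these 12, was called lower in OA PBMC, where 2.2% of all genes were.

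**Figure D4:**
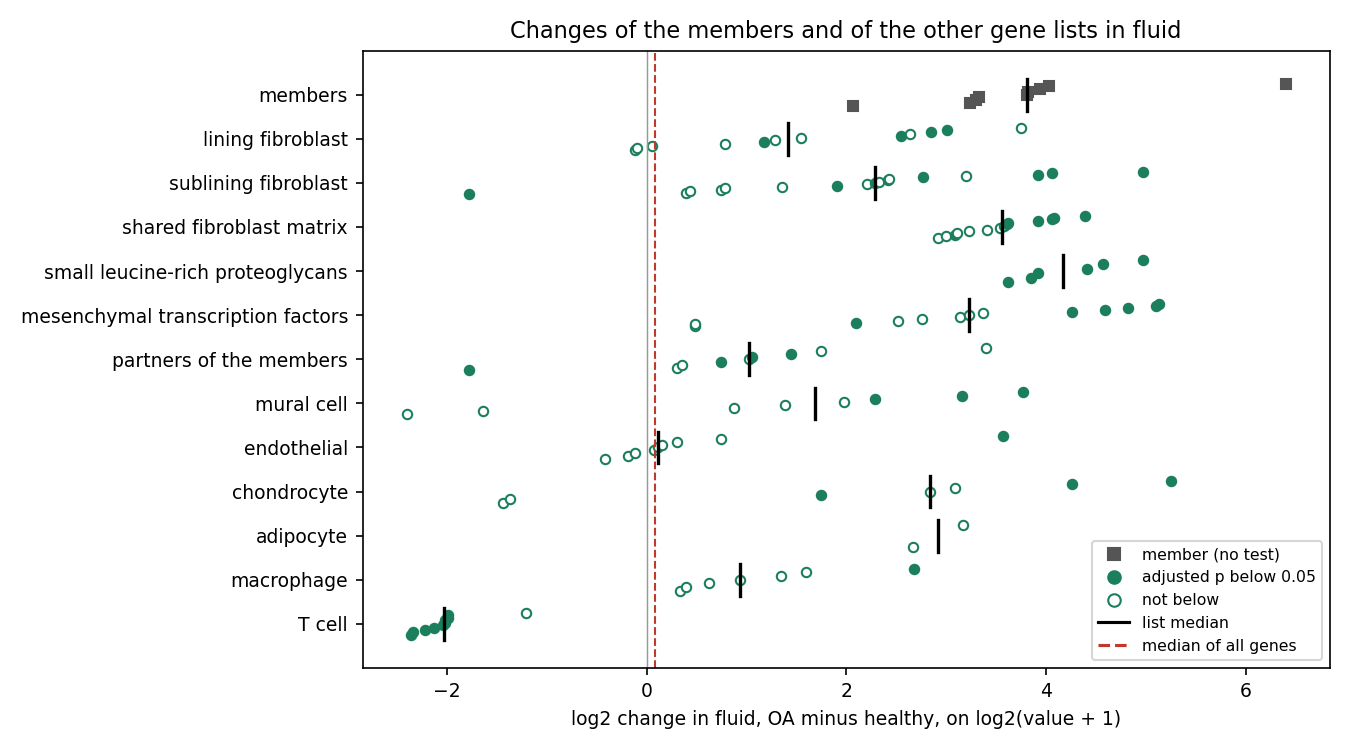
Log2 change in fluid, OA minus healthy, of the members (squares, no test) and of the genes of 12 other lists (circles, filled where the limma adjusted p was below 0.05), with a black bar at each list's median and a dashed line at the median of all genes, 0.08. The medians of the fibroblast lists lie right of that line and 9 of the 10 T cell genes are filled on its left.

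Matrix genes that fibroblasts of both layers use were read next. Of 14 shared fibroblast matrix genes, 6 rose, 0 fell and the median change was 3.56. FN1, which encodes fibronectin, had 163413 ± 107478 normalised counts in OA fluids (SD, n = 5) and 14658 ± 20881 in healthy fluids (SD, n = 11), and its change was 4.06 (SE 0.89; limma adjusted p = 0.00499). The lowest OA fluid for FN1 was OA_9570 with 19963, a count that 2 healthy fluids reached. SPARC, a protein that binds collagen, had a change of 3.09 (SE 0.68; limma adjusted p = 0.00499), and COL6A3, a chain of collagen VI, had 4.39 (SE 1.35; limma adjusted p = 0.0247). COL1A1, a chain of collagen I, had a change of 3.54 (SE 1.49) with a limma adjusted p of 0.083, which did not pass. Its count in OA_9570 was 302, which 10 healthy fluids reached. The count of 6 was 14 without OA_9570, 12 without ORC_188, 8 without ORC_205, 2 without OA_2615 or OA_3850, 3 without OA_1038 or OA_9350, 10 with edgeR and 12 with DESeq2. In PBMC 4 of the 14 genes passed the filter. FN1 alone of these was called higher in OA PBMC with all libraries, where 3.2% of all genes were.

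The relatives of DCN and LUM, the other small leucine-rich proteoglycans, were 6 tested genes, and all 6 rose, with a median change of 4.17, where 14.4% of all genes rose. BGN was already counted among the shared matrix genes, and ASPN and OGN among the sublining genes, so these are not separate calls. KERA and EPYC did not pass the filter. PRELP, which anchors basement membranes to collagen, had a change of 4.42 (SE 1.19; limma adjusted p = 0.0121), and FMOD, which encodes fibromodulin, had 4.57 (SE 1.33; limma adjusted p = 0.0182). ASPN, which encodes asporin, had 861 ± 778 normalised counts in OA fluids (SD, n = 5) and 45.8 ± 81.4 in healthy fluids (SD, n = 11), a change of 4.97 (SE 1.51; limma adjusted p = 0.0219). OMD, which encodes osteomodulin, had 3.85 (SE 1.08; limma adjusted p = 0.0151, DESeq2 0.0965). The count of 6 was 1 without OA_2615 or OA_3850, 3 without OA_1038, 5 without OA_9350, ORC_197, ORC_200, ORC_208 or ORC_209, and 5 with DESeq2.

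SIX2 was read beside other transcription factors of mesenchymal cells. Of 13 tested, 6 rose, 0 fell and the median change was 3.23, which was also 3.23 with SIX4 at its bound. SIX4, of the same family, had 49.3, 25.1, 55.1, 34.6 and 0 normalised counts in the OA fluids and no read in any of the 11 healthy fluids. Its OA mean of 32.8 was at least 11.7-fold higher than the floor of 3 reads per healthy library (limma adjusted p = 0.0038). PRRX1, a homeobox factor of limb mesenchyme, had a change of 5.11 (SE 1.28; limma adjusted p = 0.0085), and MEOX2, a homeobox factor of somites and vessels, had 5.14 (SE 1.37; limma adjusted p = 0.0117, DESeq2 0.0567). The count of 6 was 4 without OA_1038 or OA_2615 and 11 without OA_9570.

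Ligands and partners of the members were followed as well. Of 9 tested, 3 rose and 1, DPP4, fell, with a median change of 1.03. The ligands of the platelet-derived growth factor receptors did not pass limma with all libraries, with changes of 0.35 (SE 0.47; adjusted p = 0.594) for PDGFB, 1.03 (SE 0.81; adjusted p = 0.347) for PDGFC and 1.74 (SE 1.05; adjusted p = 0.216) for PDGFD. Without OA_9570 the limma adjusted p was 0.0317 for PDGFC and 0.0414 for PDGFD, and DESeq2 gave 0.0253 for PDGFD. The 3 that rose with all libraries were the catenins, which tie cadherins such as cadherin-11 to actin. CTNNB1, or beta-catenin, had 9698 ± 1555 normalised counts in OA fluids (SD, n = 5) and 5853 ± 1157 in healthy fluids (SD, n = 11), a change of 0.74 (SE 0.17; limma adjusted p = 0.00493). CTNNA1 had 1.05 (SE 0.29; limma adjusted p = 0.0142) and CTNND1 1.44 (SE 0.45; limma adjusted p = 0.026). The catenins are used by most cells. The count of 3 higher was 6 without OA_9570 and 5 with DESeq2, and 2 at the lowest, without OA_2615, OA_3850 or OA_9350.

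Markers of other cells that fluid can hold were read beside these results. The summed level of 10 T cell markers was 7824 to 33366 in OA fluids and 34643 to 126191 in healthy fluids, which did not overlap, and 9 of the 10 fell, with and without OA_9570, with a median change of −2.03. CD247, a chain of the T cell receptor complex, had a change of −2.37 (SE 0.36; limma adjusted p = 0.000679) and ZAP70, a kinase of the same complex, −2.35 (SE 0.39; limma adjusted p = 0.00102). CD2 and CD3D had −2.04 (SE 0.32; limma adjusted p = 0.00076) and −2.22 (SE 0.36; limma adjusted p = 0.000782). The 7 macrophage markers summed to 42032 to 498444 in OA fluids and 9314 to 528963 in healthy fluids, and 1 of them, the scavenger receptor CD163, rose, by 2.68 (SE 0.77; limma adjusted p = 0.0177), with p up to 0.0537 without OA_2615, OA_3850 or OA_9350. The count was 2 without OA_1038 or ORC_205. The labelled mononuclear cells were thus present by their markers in all fluids. The part of the lower T cell marker levels in the higher fibroblast genes was not tested.

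Mural cells of vessels, which share PDGFRB with fibroblasts, were followed by 8 markers, of which 3 rose and 0 fell, with a median change of 1.68. Their summed level was 5725 to 10238 in OA fluids and 360.2 to 2564 in healthy fluids. The fluid OA_9570, the poorest in the members among the OA ones, had 7943. CSPG4, the pericyte proteoglycan NG2, had 2351 ± 1293 normalised counts in OA fluids (SD, n = 5) and 234 ± 208.01 in healthy fluids (SD, n = 11), a change of 3.77 (SE 0.74; limma adjusted p = 0.00247), with 2116 in OA_9570. ACTA2, or smooth muscle actin, had a change of 2.29 (SE 0.71; limma adjusted p = 0.025), with its highest OA value, 5616, in OA_9570. RGS5, a pericyte marker, had 138 reads over the OA fluids and 2 over the healthy fluids, a ratio of 163 at equal depth (exact interval 44.2 to 1358, counting error only). It had no read in OA_9350 and OA_9570, and MYH11, myosin of smooth muscle, averaged 17.9 in OA fluids and 50.1 in healthy fluids. NOTCH3, MYH11, DES and ACTG2 were also at 0 in OA_9570. The count of 3 was 4 without OA_9570, 1 without OA_3850, and 2 without OA_1038, OA_2615, OA_9350 or ORC_201, and with scaling to equal totals 2 rose and 1 fell. The gene that fell was MCAM, also called lower without OA_9350, OA_9570 or ORC_205, and MYH11 was called lower without OA_1038 or ORC_208.

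Of 9 endothelial markers 1 rose, VWF, with a median change of 0.11, or −0.09 with scaling to equal totals. VWF had 3.57 (SE 1.10; limma adjusted p = 0.0231), but edgeR gave an adjusted p of 0.246, and limma 0.0628 without OA_9350. The summed endothelial level was 4567 to 9212 in OA fluids and 3825 to 12697 in healthy fluids. Of 7 chondrocyte genes 3 rose, with a median change of 2.84. ACAN, which encodes the cartilage proteoglycan aggrecan, had 5.26 (SE 1.19; limma adjusted p = 0.00509), HAPLN1, its link protein, 4.26 (SE 1.43; limma adjusted p = 0.0345, edgeR 0.0721) and COMP 1.74 (SE 0.63; limma adjusted p = 0.0461). COL2A1, the main collagen of cartilage, averaged 63.7 in OA fluids and 149 in healthy fluids, with a change of −1.37 (SE 0.67; limma adjusted p = 0.129), and CHAD averaged 31.9 in OA fluids and 60.2 in healthy fluids, with −1.44 (SE 0.82; limma adjusted p = 0.189). The summed level of the chondrocyte genes was 145 to 2573 in OA fluids, lowest in OA_9570, and 251 to 583 in healthy fluids. The count of 3 was 1 without any one of OA_1038, OA_2615, OA_3850, OA_9350, ORC_192, ORC_200, ORC_208 and ORC_209, and 5 without OA_9570. The 2 adipocyte genes tested did not pass, with a limma adjusted p of 0.101 for ADIPOQ and 0.0543 for FABP4. FABP4 was called by edgeR (adjusted p = 0.0453) and DESeq2 (adjusted p = 0.032), by limma without OA_9570 (adjusted p = 0.0042) and by limma without ORC_197 or ORC_205, and ADIPOQ by limma without OA_9350 or ORC_202. No erythroid gene was tested, since all 3 listed were below the filter, with a sum of 0 to 11.1 in OA fluids and 0 to 5.02 in healthy fluids. The part of these cells in the members' levels was not tested.

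The genes whose pattern was most like the members over the 16 fluids were sought among all genes tested. Those most like PDPN on log2(value + 1) were HHIPL1, CYP27A1, PHLDB2, SLC7A2 and GAS1, with Pearson's r of 0.96, 0.95, 0.95, 0.94 and 0.94. Over the 11 healthy fluids alone their r to PDPN was 0.92, 0.95, 0.91, 0.84 and 0.90. The genes most like the mean of the 5 sublining genes were SERPINF1, COL1A2, COL6A2, COL6A1 and COL3A1, with r of 0.98, 0.98, 0.98, 0.98 and 0.97, and of 0.98, 0.95, 0.95, 0.95 and 0.94 in the healthy fluids alone. SERPINF1 encodes a secreted inhibitor of vessel growth, and the other 4 are collagen chains. No gene was among the 5 for both, which does not show separate layer patterns. PDPN itself had r = 0.86 to the sublining mean over the 16 fluids. It had 120 reads over the healthy fluids and none in 3 of them. Over the healthy fluids FAP had r = 0.97 to the sublining mean and 0.56 to PDPN, whereas CDH11 had 0.77 and 0.78. All these r values describe libraries that share a normalisation and a cell mixture.

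In blood only THY1 of the 8 members passed the filter. The question there was whether the members differ between OA and healthy horses outside the joint, and the fluid contrast that chose the genes does not enter it. THY1 had 332, 339.7, 627, 268, 794 and 120.1 normalised counts in the PBMC of OA_1038, OA_2615, OA_3850, OA_4110, OA_9350 and OA_9570, against 104, 272 and 807 as the lowest, median and highest of the 9 healthy horses. The groups overlapped nearly whole, and the highest value of all was in the healthy horse ORC_202. The mean was 414 ± 249 in OA PBMC (SD, n = 6) and 313 ± 211 in healthy PBMC (SD, n = 9), a log2 change of 0.41 (SE 0.44; 95% interval −0.52 to 1.34; limma adjusted p = 0.572). edgeR gave an adjusted p of 0.572 and DESeq2 0.556. No difference was shown, although the interval includes changes of more than 1 log2 unit. In PBMC 5.4% of 13072 genes were called in either direction.

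**Figure D5:**
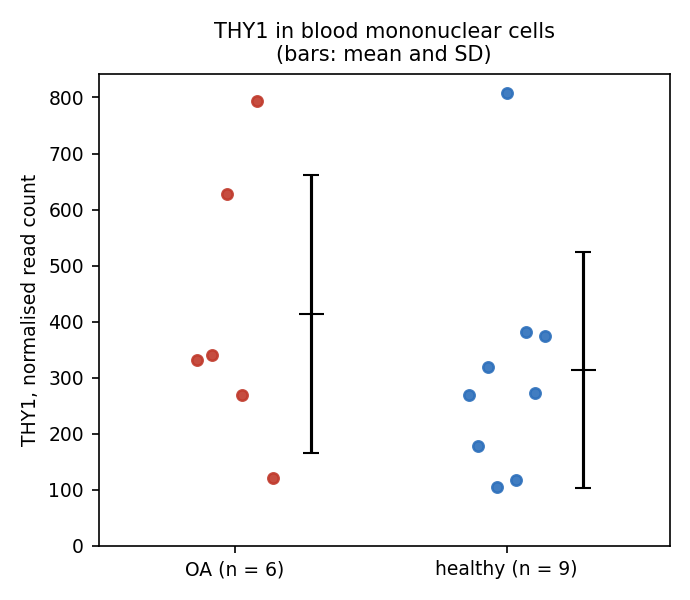
THY1 in PBMC as normalised read counts, 1 point per horse, OA (red, n = 6) left of healthy (blue, n = 9), with bars at the mean and SD. The groups overlap, and their means are 414 in OA and 313 in healthy horses.

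The other 7 members were at or near 0 in blood. Over the 6 OA and the 9 healthy PBMC libraries PDPN had 4 and 0 reads, PDGFRA 8 and 3, PDGFRB 16 and 17, FAP 2 and 8, and SIX2 3 and 0. DCN had 0 reads in OA PBMC and 16 in healthy PBMC, and LUM had 0 and 2, and all of these DCN and LUM reads were in ORC_202. A count of 0 allows a normalised count of up to 2.54 to 2.82 in an OA library and 2.90 to 3.96 in a healthy one. No difference between the groups was detectable for these 7 genes at this depth, and no level was compared between fluid and blood, since their tables were normalised separately.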

How the data were processed

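RNA of fluid cells and PBMC was sequenced after oligo(dT) selection with a TruSeq kit, per the labels' protocols. The deposited files hold a signal for each gene: the authors scaled read counts by 1 size factor a library, separately in fluid and in blood. The submitters' processing notes name EquCab3.0, Partek, cutadapt, STAR 2.7.3, HTSeq and DESeq, with settings not given here. Coordinates were taken from the blood table, as the fluid table names genes by symbol alone.

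Low values were whole multiples of 1 read, which gave the reads back (99.88% to 99.98% of a library's values lay within 0.1 of a whole read). No 2 libraries were near copies (smallest chi-square per gene 107.5 in fluid and 35.9 in blood), and each is a separate horse within its tissue. In each tissue limma 3.58.1 (R 4.3.3, trend, robust) tested OA against healthy on log2(value + 1), two-sided, over genes averaging 10 or more, with Benjamini-Hochberg adjustment at 0.05. This scale understates changes of low genes. edgeR 4.0.16 and DESeq2 1.42.0 on the recovered reads were alternatives, and edgeR called 3986 genes in fluid and 807 in blood. The steps were tested on simulated data.

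The members and all lists were chosen with earlier results of these data known. Named are all members, up to 4 called genes of smallest p per list (the 2 of highest mean where none was called) and the 5 genes most like each layer. CLIC5, CREB5, CD34, GAS6, COL1A1, COL2A1, CHAD, MCAM, MYH11, NOTCH3, DES, ACTG2, KERA, EPYC, BGN, OGN and the PDGF ligands were named after the values were seen. The relations to DCN and the blood counts of the lists were also added then. Listed genes absent from a table (PRG4, MMP3, MFAP5, TCF21, PDGFA, KCNJ8, ABCC9, LEP, C1QA, TIMD4, FOLR2, HBA1 and HBB in fluid) and the cytokine assays were not analysed here. A further gene that the naming rule gave is not reported here singly and was not replaced.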

Additional observations from a re-analysis of the deposited data

Results flagged for a closer look

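Of 11 sets of member values, each gene in 1 tissue over the OA horses, 6 held a library far from the rest, and in all 6 it was the fluid of OA_9570. Its gap to the nearest OA fluid on log2(value + 1) was more than 0.71 of the whole range, which is Dixon's critical value for 5 samples. The normalised counts of OA_9570 were 0 for PDPN, 0 for PDGFRA, 124 for DCN, 15.7 for LUM, 4.89 for FAP and 0 for CDH11. The gap took 0.791, 0.825, 0.815, 0.712, 0.717 and 0.765 of the range for these genes. Chance alone passes this limit in about 5% of groups, and the 6 genes share 1 library, so they are not separate findings. The mural cell markers of OA_9570 summed to 7943, within the OA range of 5725 to 10238, and its T cell markers to 22591, within the OA range of 7824 to 33366. Its mural sum held 5616 of ACTA2 and 2116 of CSPG4, while RGS5, NOTCH3, MYH11, DES and ACTG2 were at 0. What sets OA_9570 apart was not tested.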

How the results depend on the processing

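The log2 change of each of the 9 members in fluid and of THY1 in blood, and the lining minus sublining difference, kept their sign under all alternatives that gave them a value. The difference was 0.27 with a pseudocount of 4 and 0.80 with 0.5, and 0.29 to 0.94 with 1 library left out. Counts of calls depended on the setting. Scaling to equal totals moved the median of all fluid genes to −0.12 (0.08 as deposited), the genes higher in OA fluid to 1302 (2006 as deposited) and their share of all calls to 32% (51.4% as deposited). With 1 library left out, 1208 to 2575 genes were higher in OA fluid, 14 to 690 higher in OA PBMC (418 with all) and 17 to 519 lower in OA PBMC (288 with all). The PBMC counts of higher genes fell to 16, 17 and 14 without OA_3850, OA_9350 and OA_9570. DESeq2 called 935 higher and 750 lower in PBMC. Of the 9 members in fluid, 2 were called by limma, 1 with a pseudocount of 0.5, 6 with 4, 4 with a mean of at least 50, 7 with edgeR, 7 with DESeq2 and 1 to 9 with 1 library left out. All genes called higher numbered 2006, 1938, 2196, 1876, 1947, 2509 and 1208 to 2575 in the same order. With all libraries these were of 13885 tested, or 12136 with a mean of at least 50 and 13852 with DESeq2. The causes were not tested. PRG4 alone against the sublining was not run, and PDPN alone is the difference as given. No paired analysis was possible because OA and healthy horses share no number; a number links only the fluid and blood of 1 horse. Precision is limited by the number of horses, and in OA_9570 and the poorest healthy fluids also by 184 to 317 sublining reads.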

Other observations

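In PBMC, where THY1 was the only member with reads to follow, the genes most like it over the 15 libraries on log2(value + 1) were CDK5R1, TIAM2, MEMO1, CD34 and ARHGAP30, with Pearson's r of 0.82, 0.79, 0.78, 0.75 and 0.74. CD34 marks blood progenitor cells and vessel cells. The search was added after the values were seen, and over so many genes the highest r values are a description only. Among the listed matrix genes r to THY1 in PBMC was 0.06 for FN1 and −0.01 for SPARC.

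THY1 in the fluid and in the blood of 1 horse did not share an order among the OA horses. OA_9350 had the second lowest OA fluid value, 1403 normalised counts, and the highest OA blood value, 794, whereas OA_9570 was lowest in both, with 90.0 in fluid and 120.1 in blood. ORC_202 had the highest healthy blood value, 807, and 693 in fluid. The levels of fluid and blood are on separate scales.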
